A study of Mus musculus with 11 samples.

Results

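The 10 genes described here are Pou5f1, Sox2, Nanog, Esrrb, Tfap2c, Sall4, Zfp42, Dppa5a, Tdgf1 and Utf1, which were taken by name from the 49585 entries of the table, and each name matched 1 entry. The embryos, all of the mouse strain C57BL/6, came from oocytes injected with a round spermatid, an immature haploid male germ cell (round spermatid injection, ROSI), or with a mature sperm (intracytoplasmic sperm injection, ICSI), and their RNA was sequenced in bulk. There were 3 libraries of ROSI 2-cell embryos, 3 of ICSI 2-cell embryos, 2 of ROSI zygotes and 3 of ICSI zygotes. The study's title names the effect of paternally inherited H3K27me3 on zygotic genome activation after ROSI as its subject. ROSI embryos were activated for 1 to 2 h in calcium-free CZB medium with 5 mM SrCl2 and then kept in KSOM medium, whereas ICSI embryos were kept in KSOM, so the injected cell and the activation step cannot be told apart. The labels do not give the number of embryos in a library or the hour of collection, nor do they state whether replicates were separate cultures, so p-values rest on the spread between libraries, which may be technical.

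Pou5f1 (Oct4), Sox2 and Nanog are the DNA-binding proteins at the centre of the network that keeps the inner cell mass and embryonic stem cells able to form every tissue of the body. Mouse oocytes store transcripts of some of these genes, while others are switched on by the embryo's own genome, which is first transcribed broadly at the 2-cell stage. Cells committed to the pluripotent lineage are not yet present at these stages, so the levels below describe RNA that precedes the inner cell mass.

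The values are TPM (transcripts in every 1000000), which are shares of a library scaled to gene length, so levels can be set side by side between genes. All 10 genes passed the filter of 1 TPM in at least 2 libraries. Tdgf1 and Utf1 passed it through 2-cell libraries alone, Nanog through 2 ROSI 2-cell libraries alone, and the other 7 were at or above 1 TPM in all 11 libraries. Depth recovered from the values was 20.5 to 23.0 M reads (M, 1000000) in ROSI 2-cell embryos, 8.48 to 32.9 M in ICSI 2-cell embryos, 30.4 to 85.95 M in ROSI zygotes and 70.7 to 83.0 M in ICSI zygotes. Protein-coding genes held 44.6% to 51.4% of TPM in the 2-cell libraries and 65.9% to 71.5% in the zygotes, so a share can move between stages through the rest of the library. Oocyte markers, a list of 10, summed to 913 to 1111 TPM in ROSI 2-cell embryos, 1462 to 1475 TPM in ICSI 2-cell embryos, 5875 to 6704 TPM in ROSI zygotes and 7170 to 8457 TPM in ICSI zygotes, and none of the 10 was at 0 in a whole group.

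**Figure D1:**
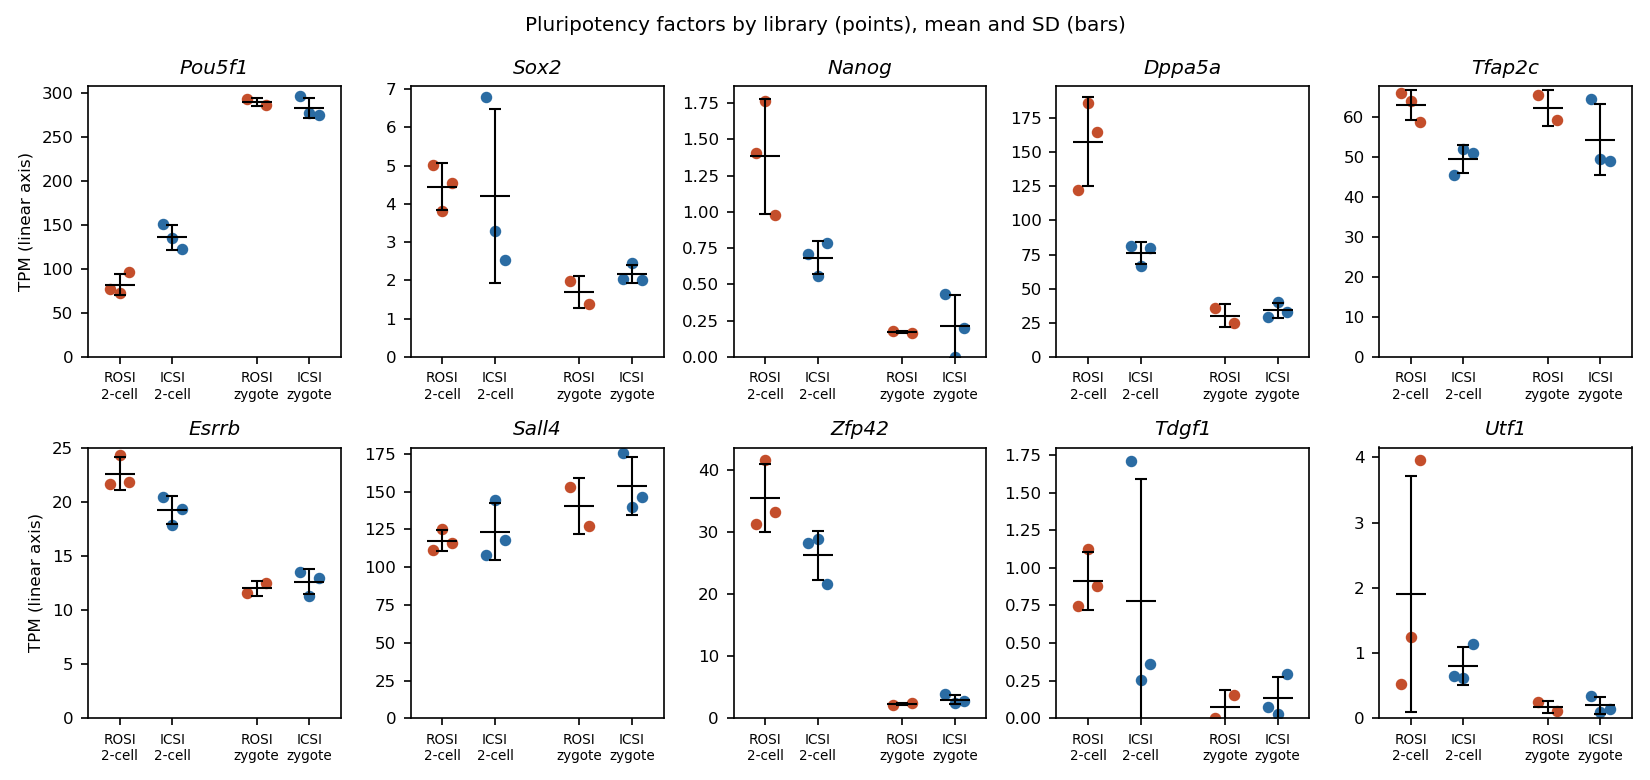
TPM of each of the 10 genes (linear axes from 0, each with its own scale) in the 11 libraries, by group; points are libraries, the long bar is the mean and the whiskers are 1 SD, cut at 0 where they would pass below it. Pou5f1 lies between 73.0 and 96.1 TPM in the ROSI 2-cell libraries and between 122 and 151 TPM in the ICSI 2-cell libraries, and Dppa5a shows the opposite order with 122 to 186 TPM in the ROSI and 66.7 to 81.0 TPM in the ICSI 2-cell libraries.

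Pou5f1 encodes the POU-domain factor on which pluripotency of the inner cell mass depends, and its RNA is stored in the oocyte. The gene lies on the plus strand at chr17:35506018-35510772 (GRCm38, GENCODE M21). It had 77.7, 73.0 and 96.1 TPM in ROSI 2-cell embryos, against 151, 135 and 122 TPM in ICSI 2-cell embryos. Every ROSI library lay below every ICSI library at this stage, and each value rests on at least 1284 reads. The log2 difference was -0.73 (SE 0.11, limma adjusted p = 0.00681, n = 3 each). In bulk RNA, a lower level in every cell and a lower level in only some cells cannot be told apart. Zygotes had 293 and 287 TPM after ROSI and 297, 278 and 276 TPM after ICSI, with overlapping libraries and a difference close to 0 (0.03 on the log2 scale, SE 0.13, limma adjusted p = 1). Between stages Pou5f1 fell by 1.82 on the log2 scale in ROSI 2-cell embryos relative to ROSI zygotes (SE 0.13, limma adjusted p = 3.35e-07), and by 1.06 in ICSI 2-cell embryos relative to ICSI zygotes (SE 0.11, limma adjusted p = 9.58e-06). An antisense gene, Gm19553, overlaps Pou5f1, and it had at most 0.205 TPM in any library, but the strand setting of the counting is not given, so reads of the pair may not be told apart.

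Other RNAs also differed between ROSI and ICSI 2-cell embryos. Over all genes tested, 4.93% were higher and 4.58% lower after ROSI. A list of 10 genes known from the 2-cell embryo included Zscan4c and Zfp352. Relative to zygotes, 8 of these were higher and 1 lower in 2-cell embryos, after ROSI and after ICSI alike. The list summed to 453 to 652 TPM in ROSI 2-cell embryos against 921 to 960 TPM in ICSI 2-cell embryos. Between these 2 groups 7 of 10 genes were lower and none higher after ROSI by the limma test. The oocyte list had 4 of 10 genes lower and none higher in ROSI than in ICSI 2-cell embryos. Its sum was already lower in zygotes, with 5875 to 6704 TPM after ROSI against 7170 to 8457 TPM after ICSI, where 0 of the 10 passed. Spermatid markers summed to 25.3 to 49.8 TPM in ROSI 2-cell embryos against 1.74 to 4.47 TPM in ICSI 2-cell embryos, where Smcp and Tnp2 were at 0, and 5 of the 9 tested were higher. Spermatogonium and spermatocyte markers summed to 352 to 397 TPM in ROSI 2-cell embryos against 287 to 318 TPM in ICSI 2-cell embryos, with 2 of 9 tested higher. In zygotes that list was not higher after ROSI, with 157 to 175 TPM against 180 to 183 TPM after ICSI. Somatic testis markers summed to 4.98 to 9.12 TPM in ROSI 2-cell embryos and 5.74 to 7.02 TPM in ICSI 2-cell embryos, and cumulus cell markers to 3.87 to 5.05 TPM in ROSI and 5.98 to 6.72 TPM in ICSI 2-cell embryos. Of these 2 lists, 4 and 3 genes were tested and none passed. Their part in the members' differences was not tested.

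Promoter sequences show the start regions of 3 members with different histories in these embryos. Pou5f1 was high in zygotes, Zfp42 rose most between the stages, and Nanog was scarce in every library. The 250 bases before the annotated start are from RefSeq (GRCm38.p6), given 5′ to 3′ on the gene's strand. Capitals mark matches on either strand to GGGCGG (the GC box of Sp1), AGGTCA (a site of nuclear receptors such as Esrrb), ATGCAAA (a site of POU factors), ATTGTT (a core site of Sox factors), TATAAA or CCAAT (a site of NF-Y). They lie at chr17:35505782-35506031 on the plus strand for Pou5f1, chr8:43307010-43307259 on the minus strand for Zfp42 and chr6:122707239-122707488 on the plus strand for Nanog.
Pou5f1: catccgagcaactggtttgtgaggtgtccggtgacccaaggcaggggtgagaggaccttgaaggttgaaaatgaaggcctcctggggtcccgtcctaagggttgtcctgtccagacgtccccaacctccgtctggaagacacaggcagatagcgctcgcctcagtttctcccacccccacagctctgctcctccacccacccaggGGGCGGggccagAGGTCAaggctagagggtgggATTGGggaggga
Zfp42: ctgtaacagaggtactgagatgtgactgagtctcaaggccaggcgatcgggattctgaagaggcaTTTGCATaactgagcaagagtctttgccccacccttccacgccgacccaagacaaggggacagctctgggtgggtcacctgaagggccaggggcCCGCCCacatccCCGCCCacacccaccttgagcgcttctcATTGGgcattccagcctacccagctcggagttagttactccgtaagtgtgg
Nanog: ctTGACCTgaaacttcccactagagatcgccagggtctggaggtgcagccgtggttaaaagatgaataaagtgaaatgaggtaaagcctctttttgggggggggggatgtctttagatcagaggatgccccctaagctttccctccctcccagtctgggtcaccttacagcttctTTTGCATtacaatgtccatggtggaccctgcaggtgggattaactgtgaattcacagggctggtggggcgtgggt

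RefSeq promoters matched 7 of the 10 genes, namely Pou5f1, Sox2, Nanog, Esrrb, Zfp42, Tdgf1 and Utf1, and the search used 300 bases from 250 before to 50 after each start. GGGCGG was found in 5 of the 7 and in 35.7% of the 32851 promoters searched, called all promoters here. They leave out a chromosome and count every listed start, whereas each member was searched at its most upstream start only. AGGTCA was found in 3 of the 7, namely Pou5f1, Sox2 and Nanog, and in 16.3% of all promoters. In Pou5f1 the AGGTCA match began at -33 and the GGGCGG match at -45 relative to the start. ATGCAAA was found in Sox2, Nanog and Zfp42, 3 of the 7, and in 4.63% of all promoters, and the Nanog match began at -75. CCAAT was found in 3 of the 7 and in 37.4% of all promoters, ATTGTT in Esrrb alone of the 7 and in 10.7%, and TATAAA in 0 of the 7 and in 13.6%. These are letter matches in a window, and no binding was measured.

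Sox2, the HMG-box partner with which Pou5f1 binds many of its sites, was a scarce RNA at both stages. It had 5.01, 3.80 and 4.54 TPM in ROSI 2-cell embryos and 6.80, 3.28 and 2.53 TPM in ICSI 2-cell embryos. The ICSI libraries bracketed all 3 ROSI libraries, and the log2 difference of 0.15 had a 95% interval of -0.43 to 0.72 (limma adjusted p = 0.767). Without ICSI 2-cell replicate 1, which has the highest value and the lowest depth, both remaining ICSI libraries lay below all ROSI libraries. In zygotes Sox2 had 1.98 and 1.39 TPM after ROSI and 2.03, 2.44 and 2.02 TPM after ICSI. Both ROSI zygote libraries lay below the ICSI libraries, and the difference of -0.24 (SE 0.29) did not pass. Sox2 rose by 1.02 in ROSI 2-cell embryos relative to zygotes (SE 0.29, limma adjusted p = 0.00926). That call is lost without ROSI zygote replicate 2 (adjusted p = 0.0738) and with quantile normalization (adjusted p = 0.205). In ICSI embryos the corresponding difference was 0.63 (SE 0.26, limma adjusted p = 0.0502). It passed with median-ratio scaling (adjusted p = 0.0412), protein-coding rescaling (adjusted p = 0.00744), the 5 TPM filter (adjusted p = 0.0487), the replicate block (adjusted p = 0.0401) and without ICSI 2-cell replicate 3 (adjusted p = 0.0119). With a library left out it lay between 0.30 and 0.87, the lowest without ICSI 2-cell replicate 1. Sox2 lies within the long noncoding gene Sox2ot, which had 0.0960 to 0.739 TPM, and reads shared by both genes are uncertain.

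Nanog, the homeobox factor that marks the epiblast, rested on 0 to 39 reads in a library. It had 1.41, 1.77 and 0.975 TPM in ROSI 2-cell embryos, from 34, 39 and 18 reads, and 0.707, 0.558 and 0.784 TPM in ICSI 2-cell embryos, from 6, 15 and 24 reads. The libraries did not overlap, but the log2 difference of 0.49 (SE 0.21) did not pass the limma test (adjusted p = 0.175). For the lowest ROSI library the 95% Poisson interval was 0.578 to 1.54 TPM, and for the highest ICSI library it was 0.502 to 1.17 TPM, and these intervals overlap. Zygotes had 0.178 and 0.167 TPM after ROSI, and 0.432, 0 and 0.201 TPM after ICSI. The ICSI zygote library with 0 reads had a 95% Poisson interval reaching 0.0656 TPM. Nanog rose by 1.01 in ROSI 2-cell embryos relative to zygotes (SE 0.24, limma adjusted p = 0.00323). The corresponding difference in ICSI embryos was 0.49 (SE 0.21, limma adjusted p = 0.0645), and it passed in 7 of the other settings, among them median-ratio scaling (adjusted p = 0.0478), protein-coding rescaling (adjusted p = 0.017) and array weights (adjusted p = 0.0181). The ROSI call is lost with quantile normalization (adjusted p = 0.111). Nanog reached 1 TPM only in 2 ROSI 2-cell libraries, so it entered the test through the group in which it was high. Calls of its rise between stages therefore carry no weight.

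Esrrb, Tfap2c, Sall4 and Zfp42 encode further DNA-binding proteins of the network, and none of them passed the test between ROSI and ICSI at either stage. Esrrb, an orphan nuclear receptor of naive pluripotent cells, had 21.7, 24.4 and 21.9 TPM in ROSI 2-cell embryos and 20.5, 17.9 and 19.4 TPM in ICSI 2-cell embryos. The ROSI libraries lay above the ICSI libraries, by 0.22 on the log2 scale (SE 0.11, limma adjusted p = 0.207). In zygotes it had 11.6 and 12.5 TPM after ROSI and 13.6, 11.4 and 13.0 TPM after ICSI, and the groups overlapped. Esrrb rose in 2-cell embryos relative to zygotes, by 0.86 after ROSI (SE 0.12, limma adjusted p = 6.74e-05) and by 0.57 after ICSI (SE 0.11, limma adjusted p = 0.00059).

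Tfap2c, an AP-2 factor of the early embryo, the trophectoderm and the germ line, was among the steadiest of the 10 across stages on the TPM scale. It had 66.0, 64.1 and 58.8 TPM in ROSI 2-cell embryos and 45.6, 52.1 and 51.0 TPM in ICSI 2-cell embryos. The groups did not overlap, and the log2 difference of 0.34 (SE 0.12) did not pass (limma adjusted p = 0.0966). It passed, at 0.39, with the small RNA share as a covariate (adjusted p = 0.0377). Zygotes had 65.5 and 59.2 TPM after ROSI and 64.7, 49.6 and 49.0 TPM after ICSI, which overlapped. The stage difference was 0.01 after ROSI (SE 0.13) and -0.12 after ICSI (SE 0.12). When TPM were rescaled over protein-coding genes it became 0.49 after ROSI (adjusted p = 0.00842) and 0.40 after ICSI (adjusted p = 0.0129), while median-ratio scaling gave -0.01 after ROSI and 0.00 after ICSI, so no direction is given for Tfap2c between stages.

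Sall4, a zinc finger factor that works with Pou5f1 in stem cells and is also abundant in oocytes, differed least between ROSI and ICSI 2-cell embryos by the fitted value. It had 112, 125 and 116 TPM in ROSI 2-cell embryos and 108, 144 and 118 TPM in ICSI 2-cell embryos. The ROSI values lay within the ICSI range, and the log2 difference was -0.06 with a 95% interval of -0.35 to 0.23. Zygotes had 153 and 127 TPM after ROSI and 176, 140 and 146 TPM after ICSI, with overlap. The stage difference of -0.25 after ROSI (SE 0.15, limma adjusted p = 0.154) and -0.32 after ICSI (SE 0.13, limma adjusted p = 0.0504) did not pass. The ICSI value passed in 7 of the other settings, with adjusted p between 0.0132 and 0.0499. Rescaled over protein-coding genes it was 0.23 after ROSI and 0.21 after ICSI, so its sign depends on the scaling. Gm14261, which overlaps Sall4, had 0.530 to 3.12 TPM.

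Zfp42 (Rex1), a zinc finger gene long used as a marker of undifferentiated stem cells, had the largest stage difference of the 10. It had 31.4, 41.7 and 33.2 TPM in ROSI 2-cell embryos and 28.2, 28.8 and 21.7 TPM in ICSI 2-cell embryos. Zygotes had 2.22 and 2.41 TPM after ROSI and 3.85, 2.48 and 2.71 TPM after ICSI. All 2-cell libraries lay above all zygote libraries, and the rise was 3.45 after ROSI (SE 0.19, limma adjusted p = 5.05e-08) and 2.77 after ICSI (SE 0.17, limma adjusted p = 9.61e-08). ROSI libraries lay above ICSI libraries at the 2-cell stage, with a difference of 0.42 (SE 0.17, limma adjusted p = 0.141), and below them in zygotes, with a difference of -0.26 (SE 0.19). Neither difference passed.

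Dppa5a (Esg1) encodes a KH-domain RNA-binding protein of pluripotent cells and lies at chr9:78367052-78368177 on the minus strand. It had 122, 186 and 165 TPM in ROSI 2-cell embryos, against 81.0, 66.7 and 79.8 TPM in ICSI 2-cell embryos. Every ROSI library was above every ICSI library, and the log2 difference was 1.03 (SE 0.19, limma adjusted p = 0.0118, n = 3 each). In zygotes the order was not the same, with 36.0 and 24.5 TPM after ROSI and 28.9, 40.0 and 33.2 TPM after ICSI. These libraries overlapped, and the difference was -0.18 with a 95% interval of -0.65 to 0.30. Dppa5a rose by 2.35 in ROSI 2-cell embryos relative to ROSI zygotes (SE 0.21, limma adjusted p = 2.61e-06) and by 1.14 in ICSI 2-cell embryos relative to ICSI zygotes (SE 0.19, limma adjusted p = 0.000289). At 619 exon bases it is the shortest of the 10 genes, and its values rest on 190 to 1133 reads.

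Tdgf1 and Utf1 were near the floor in zygotes. Tdgf1 (Cripto), a co-receptor for Nodal on the cell surface, had 0.743, 1.12 and 0.880 TPM in ROSI 2-cell embryos, from 21, 29 and 19 reads. In ICSI 2-cell embryos it had 1.71, 0.254 and 0.363 TPM, from 17, 8 and 13 reads. The highest and the lowest values of the stage were both in ICSI libraries, and the Poisson interval of the high one, 0.997 to 2.74 TPM, lay above those of the other two. Zygotes had 0 and 0.156 TPM after ROSI and 0.0739, 0.0304 and 0.293 TPM after ICSI, from at most 17 reads, and the interval of the ROSI library at 0 reads reached 0.140 TPM. The pseudogene Tdgf1-ps2 reached 0.690 TPM in one library, so reads of Tdgf1 and its pseudogenes may be split between them. Utf1, a chromatin-bound protein of stem cells, had 0.529, 1.24 and 3.96 TPM in ROSI 2-cell embryos and 0.646, 0.611 and 1.13 TPM in ICSI 2-cell embryos, from 3 to 40 reads. The ROSI libraries spread around the ICSI libraries. In zygotes Utf1 had 0.243 and 0.111 TPM after ROSI and 0.347, 0.0975 and 0.147 TPM after ICSI, from 3 to 11 reads. Both rose in ROSI 2-cell embryos relative to zygotes, Tdgf1 by 0.83 (SE 0.33, limma adjusted p = 0.0445) and Utf1 by 1.13 (SE 0.41, limma adjusted p = 0.0304). Both genes reached 1 TPM in 2-cell libraries alone and entered the test through the stage in which they were higher. Calls of their rise therefore carry no weight. The Tdgf1 call was lost in 7 of the 9 fits with 1 library left out in which it was still tested, at an adjusted p of up to 0.179, and it fell below the filter in the other 2. The Utf1 call was lost without ROSI zygote replicate 1, ROSI zygote replicate 2 or ROSI 2-cell replicate 3, at an adjusted p of up to 0.123. Both calls were also lost with a pseudocount of 5 (adjusted p = 0.075 for Tdgf1 and 0.0555 for Utf1), no filter (0.0603 and 0.0587), quantile normalization (0.31 and 0.122) and the replicate block. The Tdgf1 call was lost with median-ratio scaling (adjusted p = 0.0545) and the small RNA covariate (adjusted p = 0.079), and the Utf1 call with the groups fitted alone (adjusted p = 0.113). In ICSI embryos the stage differences of 0.57 for Tdgf1 (SE 0.29) and 0.58 for Utf1 (SE 0.37) did not pass, though Utf1 did with array weights (adjusted p = 0.0363), with the groups fitted alone (adjusted p = 0.0255) and without ROSI 2-cell replicate 3 (adjusted p = 0.0462).

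Between ROSI and ICSI at the 2-cell stage, 2 of the 10 genes passed, Dppa5a higher and Pou5f1 lower, where 9.51% of the 21938 genes tested passed, 4.93% higher and 4.58% lower. The median log2 difference of the 10 was 0.28, and that of all genes was 0.04. For 6 of the 10 genes the ROSI and ICSI libraries were fully apart, against 27.3% of all genes. Dppa5a, Nanog, Tfap2c, Zfp42 and Esrrb were above (15.4% of all genes) and Pou5f1 below (11.8%). Nanog entered the test only through ROSI 2-cell libraries, where it was high, so its place in that count carries no weight. Both calls were kept when any 1 library was left out, with highest adjusted p of 0.0262 for Pou5f1 and 0.0432 for Dppa5a. When the 6 libraries of the stage were fitted alone, neither passed (adjusted p = 0.0662 for Pou5f1 and 0.0599 for Dppa5a), and 85 of all genes did in place of 2087.

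**Figure D2:**
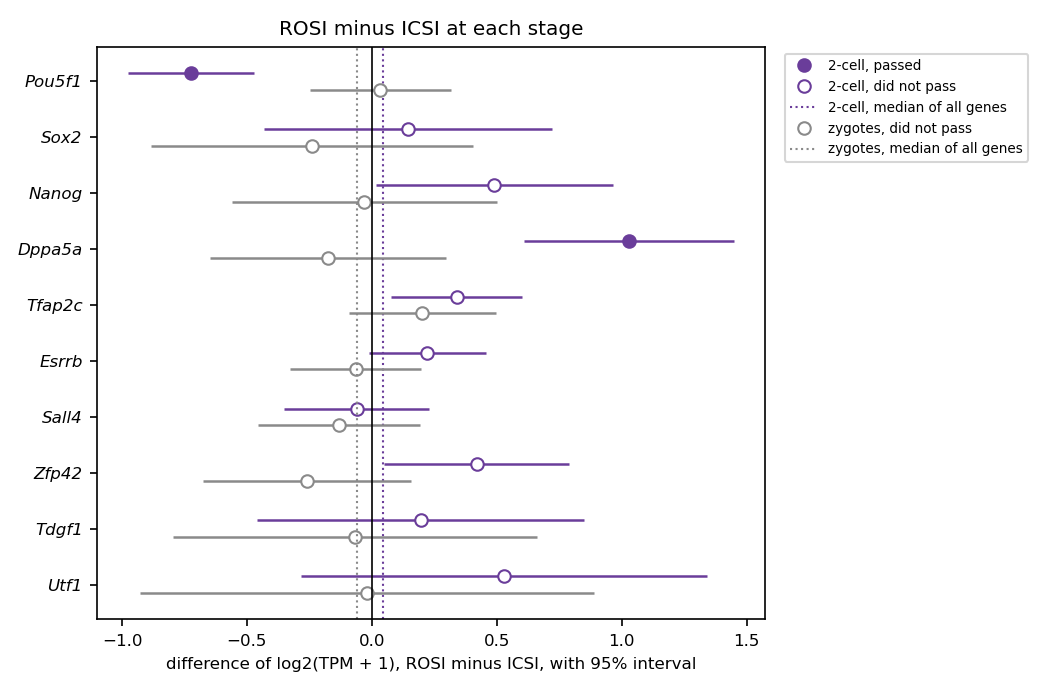
ROSI minus ICSI difference of log2(TPM + 1) for each gene (horizontal axis) with its 95% interval from the limma fit, at the 2-cell stage (purple, n = 3 and 3) and in zygotes (grey, n = 2 and 3); filled circles passed an adjusted p of 0.05, and dotted lines are the medians of all genes tested. Pou5f1 at -0.73 and Dppa5a at 1.03 are the filled circles, both at the 2-cell stage.

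In zygotes, 0 of the 10 genes passed the limma test between ROSI and ICSI, where 0.146% of all genes did. An unadjusted p under 0.05 was found for 1392 of the 21938 genes tested and for 0 of the 10. The differences lay between -0.26 for Zfp42 and 0.20 for Tfap2c, with a median of -0.07 against -0.06 over all genes. Sox2 and Zfp42 were lower in ROSI zygotes with no overlap of libraries, 2 of 10 against 26.4% of all genes without overlap in either direction. Spermatid markers summed to 71.3 to 135 TPM in ROSI zygotes against 21.2 to 28.0 TPM in ICSI zygotes, with 4 of 9 tested higher, and their part in these values was not tested. ROSI zygote replicate 1 and ICSI zygote replicate 1 held less than 1% of TPM in small nuclear and nucleolar RNA, unlike the other zygote libraries. Within that pair the differences lay between -0.59 for Zfp42 and 0.31 for Dppa5a, and within the other 3 libraries between -0.55 for Dppa5a and 0.26 for Tfap2c, and Dppa5a, Pou5f1, Nanog, Esrrb and Tdgf1 changed sign between the 2 kinds of library.

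No gene of the 10 passed the test of whether the ROSI minus ICSI difference changed between the stages, where 4 genes of the whole table did (0.0182%), and 3 of the 10 had an unadjusted p under 0.05. These were Dppa5a, with a change of 1.21 (SE 0.29, limma adjusted p = 0.113), Pou5f1, with -0.76 (SE 0.17, limma adjusted p = 0.108), and Zfp42, with 0.68 (SE 0.25, limma adjusted p = 0.248). Pou5f1 passed with median-ratio scaling (adjusted p = 0.0399) and with limma array weights (adjusted p = 0.0437), and Dppa5a passed with array weights (adjusted p = 0.047). Over all genes these settings passed 244 and 220 genes in place of 4.

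The order of the 10 levels differed between the groups. In ROSI 2-cell embryos Dppa5a came first by mean TPM, then Sall4, Pou5f1, Tfap2c, Zfp42, Esrrb and Sox2, and the libraries of Dppa5a and Sall4 overlapped. In ICSI 2-cell embryos Pou5f1 came first, then Sall4 and Dppa5a, and the libraries of Pou5f1 and Sall4 overlapped. In both groups of zygotes the order was Pou5f1, Sall4, Tfap2c, Dppa5a, Esrrb, Zfp42 and Sox2, with no overlap between neighbours. Utf1, Nanog and Tdgf1 took the last 3 places in every group, with overlap between some of them.

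The summed TPM of the 10 genes was 487 ± 43.8 in ROSI 2-cell embryos and 437 ± 17.4 in ICSI 2-cell embryos (SD, n = 3 each). It was 539.5 ± 35.1 in ROSI zygotes and 544 ± 36.7 in ICSI zygotes (SD, n = 2 and 3). Within that sum, at the 2-cell stage, Pou5f1 held 17.0% ± 2.68 in ROSI 2-cell embryos against 31.1% ± 2.50 in ICSI 2-cell embryos, and Dppa5a held 32.1% ± 3.93 in ROSI 2-cell embryos against 17.4% ± 2.28 in ICSI 2-cell embryos (SD, n = 3 each). The ratio of Dppa5a to Pou5f1 does not depend on the scaling of a library, and it was 1.57, 2.55 and 1.72 in ROSI 2-cell embryos against 0.537, 0.492 and 0.653 in ICSI 2-cell embryos. Dppa5a was above Pou5f1 in every ROSI library and below it in every ICSI library. The groups did not overlap, but this was fixed in advance by the 2 genes being fully apart in opposite directions. The ratio therefore adds no support to either difference. In zygotes the ratio was 0.123 and 0.0855 after ROSI and 0.0974, 0.144 and 0.120 after ICSI, and the groups overlapped.

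**Figure D3:**
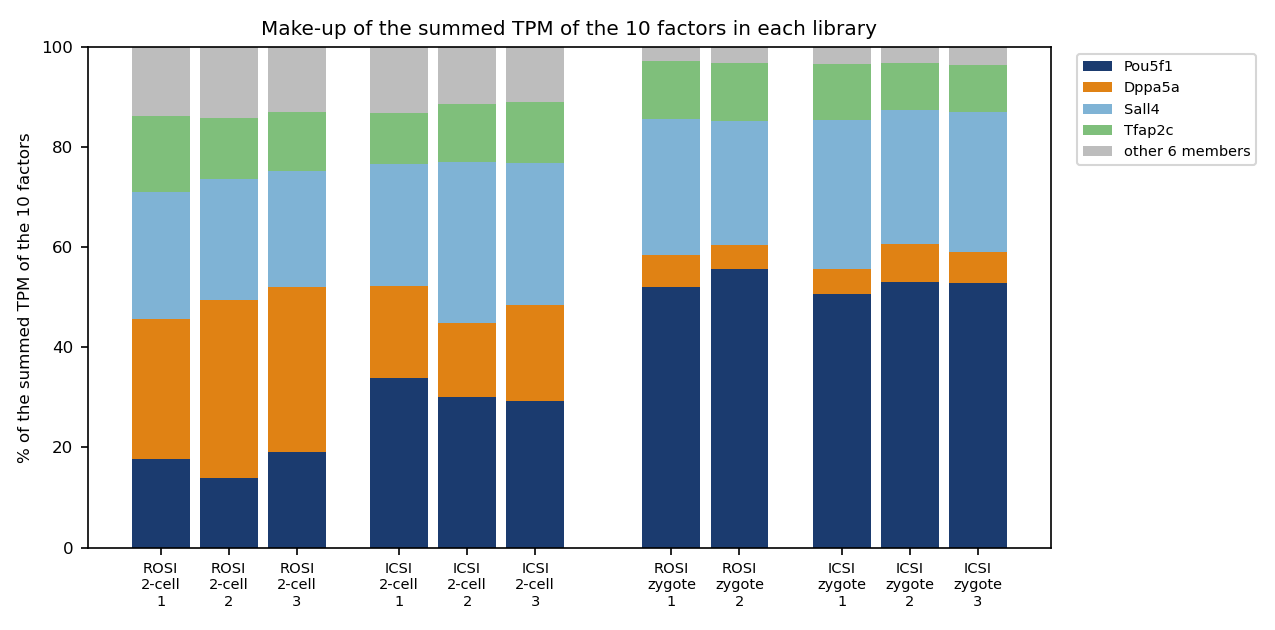
Share of the summed TPM of the 10 genes (vertical axis, %) held by Pou5f1, Dppa5a, Sall4, Tfap2c and the other 6 in each of the 11 libraries. In ROSI 2-cell libraries the Dppa5a segment is larger than the Pou5f1 segment, with means of 32.1% and 17.0%, and in ICSI 2-cell libraries it is smaller, with means of 17.4% and 31.1%.

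Between stages most of the 10 genes moved, as did most of the genes tested. In ROSI embryos 8 of the 10 passed, 7 higher at the 2-cell stage and Pou5f1 lower, where 67.9% of all genes passed. In ICSI embryos 4 of the 10 passed, Zfp42, Dppa5a and Esrrb higher and Pou5f1 lower, where 68.1% of all genes passed. Of all genes, 35.6% were higher and 32.3% lower after ROSI, and 33% higher and 35% lower after ICSI. Whether the count differs between the 2 kinds of embryo was not tested. The median stage difference of the 10 was 0.93 after ROSI against 0.19 over all genes, and 0.57 after ICSI against 0.00 over all genes. Nanog, Tdgf1 and Utf1 reached 1 TPM in 2-cell libraries alone, so they entered the test through the stage in which they were higher. Their calls carry no weight in the count after ROSI. Rescaling over protein-coding genes moved the median of all genes to 0.56 after ROSI and 0.39 after ICSI, and Pou5f1 fell and Zfp42, Dppa5a and Esrrb rose under every scaling tried.

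**Figure D4:**
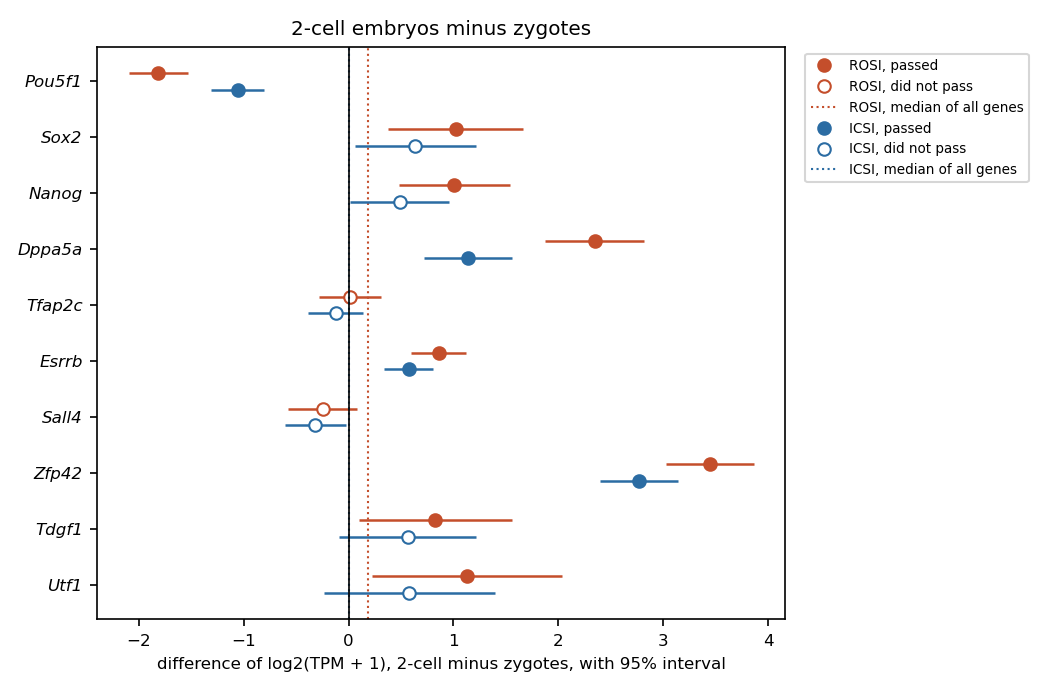
Difference of log2(TPM + 1) between 2-cell embryos and zygotes for each gene (horizontal axis) with its 95% interval from the limma fit, after ROSI (n = 3 and 2) and after ICSI (n = 3 and 3); filled circles passed an adjusted p of 0.05, and dotted lines are the medians of all genes. Zfp42 lies farthest to the right at 3.45 after ROSI and 2.77 after ICSI, and Pou5f1 farthest to the left at -1.82 after ROSI and -1.06 after ICSI.

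Of 89 further genes of the network in 6 lists, 76 were tested, and 13 passed between ROSI and ICSI at the 2-cell stage (17.1%, against 9.51% of all genes). The share over all genes includes many scarce genes and was higher with the 5 TPM filter, where 2121 of 12910 passed. In zygotes 0 of the 76 passed, and 6 had an unadjusted p under 0.05, against 1392 of all 21938 genes. Among 16 core and naive pluripotency factors tested, 2 were higher and 1 lower in ROSI 2-cell embryos. Tfcp2l1, a naive pluripotency factor, averaged 4.17 TPM in ROSI 2-cell embryos and 1.67 TPM in ICSI 2-cell embryos, which differ by 0.95 on the log2 scale (SE 0.16, limma adjusted p = 0.00893). Klf2, a Krüppel-like factor, averaged 34.5 TPM in ROSI 2-cell embryos and 23.6 TPM in ICSI 2-cell embryos, with a difference of 0.54 (limma adjusted p = 0.028). Gbx2, a homeobox gene, averaged 16.0 TPM in ROSI 2-cell embryos and 29.3 TPM in ICSI 2-cell embryos, with a difference of -0.84 (SE 0.15, limma adjusted p = 0.00958). The median over the 16 was -0.05.

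The other 5 lists held 10 of the 13 calls, in both directions. Among the 10 Dppa and early RNA-binding genes tested, Dppa2 was higher by 0.36 in ROSI 2-cell embryos (limma adjusted p = 0.048), and Lin28a, which blocks let-7 maturation, was lower with -0.52 (limma adjusted p = 0.0197). Among 14 genes of signals in the pluripotent epiblast, the BMP receptor gene Bmpr1a was higher by 0.73 (limma adjusted p = 0.0143) and Il6st, the shared LIF receptor subunit gp130, was lower with -0.53 (limma adjusted p = 0.00926). Among 15 partners and cofactors, the histone demethylase gene Kdm1a was higher by 0.40 (limma adjusted p = 0.0183) and the NuRD remodeller gene Chd4 was lower with -0.35 (limma adjusted p = 0.0431). Among 10 close paralogs of the members, Sox15 was higher by 0.63 (limma adjusted p = 0.0361), and Pou2f1 with -0.64 (limma adjusted p = 0.0238) and Tfap2e with -0.50 (limma adjusted p = 0.029) were lower. Of 11 trophectoderm and primitive endoderm genes, the endocytic adaptor gene Dab2 was lower with -0.60 (limma adjusted p = 0.0401). The medians of these 5 lists were 0.19, 0.04, -0.01, -0.08 and 0.15, against 0.04 over all genes. Leaving out 1 library in turn kept Tfcp2l1, Gbx2, Bmpr1a and Il6st past the threshold, and each of the other 9 lost its call in at least 1 case.

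Between stages 68 of the 76 network genes passed after ROSI and 66 of the 76 after ICSI, against 67.9% and 68.1% of all genes. With the 5 TPM filter 10842 of 12910 genes passed after ROSI and 10834 of 12910 after ICSI. Of the 16 core and naive factors, 10 were higher and 5 lower at the 2-cell stage after ROSI, with a median of 1.54, and 10 were higher and 6 lower after ICSI, with a median of 1.60. The 14 signal genes leaned the other way, with 3 higher and 9 lower after ROSI (median -0.73) and 2 higher and 10 lower after ICSI (median -0.87). L1td1, an RNA-binding protein of stem cells, averaged 111 TPM in ROSI 2-cell embryos and 0.769 TPM in ROSI zygotes, and Fbxo15, an F-box gene bound by Oct4 and Sox2, averaged 544 TPM in ROSI 2-cell embryos and 10.2 TPM in ROSI zygotes. Klf5, which acts in the inner cell mass and trophectoderm, averaged 136 TPM in ROSI 2-cell embryos and 4.51 TPM in ROSI zygotes. Fgf4, the growth factor gene that Pou5f1 and Sox2 control in stem cells, averaged 21.4 TPM in ROSI 2-cell embryos and 0.110 TPM in ROSI zygotes, and 15.5 TPM in ICSI 2-cell embryos and 0.146 TPM in ICSI zygotes. Tead4, the trophectoderm factor, averaged 45.2 TPM in ROSI 2-cell embryos and 0.541 TPM in ROSI zygotes. Genes that fell included Prdm1, with 2.42 TPM in ROSI 2-cell embryos and 28.0 TPM in ROSI zygotes, and Tfap2e, an AP-2 paralog of Tfap2c, with 35.0 TPM in ROSI 2-cell embryos and 504 TPM in ROSI zygotes. Each of these passed after ROSI and after ICSI, in the same direction. L1td1, Fgf4 and Tead4 are among 13 of the 76 that reached the filter through 2-cell libraries alone, and all 13 passed in both kinds of embryo. Of the 60 that reached it at both stages, 55 passed after ROSI and 53 after ICSI.

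Among 8765 genes compared, without Gm and Rik symbols, Abhd4, Ceacam20 and Trim60 followed Pou5f1 most closely in log2 values over the 11 libraries. Their Pearson r with Pou5f1 were 0.998, 0.997 and 0.996. Abhd4 averaged 16.1 TPM in ROSI 2-cell embryos, 33.4 TPM in ICSI 2-cell embryos, 87.7 TPM in ROSI zygotes and 91.5 TPM in ICSI zygotes. Tmem159, Sycp3 and Eid2b followed Dppa5a most closely, with r of 0.991, 0.987 and 0.98. Tmem159 averaged 17.5 TPM in ROSI 2-cell embryos, 7.46 TPM in ICSI 2-cell embryos, 2.46 TPM in ROSI zygotes and 3.39 TPM in ICSI zygotes. These r are descriptions: the 11 libraries fall into 2 stages, so their points share the step between the stages.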

How the data were processed

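The deposited values are TPM, computed by the authors, 1 column for each of the 11 libraries. Libraries were made with a stranded SMART-seq kit from 1 ng of total RNA, per the labels' protocols. The submitters' processing notes name fastp, Bowtie2, STAR 2.7.4a, featureCounts and mm10, and the annotation and strand setting are not given in the sources used here. TPM was multiplied by GENCODE M21 exon length and scaled to whole reads. Of values up to 200 reads, 87.9% to 90.7% came out whole to within 0.01, against 2% by chance. Poisson intervals come from these reads and cover counting error only.

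Genes reaching 1 TPM in 2 or more libraries entered the test on log2(TPM + 1), which understates the change of low genes, with limma 3.58.1 in R 4.3.3 (eBayes with trend, 4 group means, Benjamini-Hochberg over 21938 genes, threshold 0.05). The fit was also run on simulated data in which some genes changed in ROSI 2-cell libraries alone. The step between stages was not simulated, so no support is drawn from that run. Every member was named. From each network list up to 4 genes per contrast with the largest change among those that passed could be named, or the 2 of the highest mean where none passed. The members and lists were chosen with earlier results of these data known, so their counts are descriptions. The 3 genes most like each member called at the 2-cell stage were found by Pearson r among genes of at least 5 TPM on average. Symbols of Gm, Rik or accession style, and those ending in a point and a number, were left out of that search. Other settings were pseudocounts of 0.1 and 5, no filter and one of 5 TPM, 3 scalings, no trend, array weights, a replicate block, a small RNA covariate, the groups alone, and each library left out. Same-numbered libraries were not treated as pairs.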

Additional observations from a re-analysis of the deposited data

How the results depend on the processing

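The direction of the Pou5f1 and Dppa5a differences at the 2-cell stage was the same under every setting. Both calls ended only when the groups were fitted alone, which gave 0 member calls, 0 network calls and 85 calls over all genes. Small RNA as a covariate gave 3 member calls there, and 1935 calls over all genes. In ROSI embryos the number of members called between stages, 8, became 5 with the 5 TPM filter, which removes low members, and 5 with quantile normalization, and lay between 5 and 8 with a library left out. Over all genes, 10842 of 12910 passed after ROSI with the 5 TPM filter and 14767 of 21938 with quantile normalization. In ICSI embryos the 4 calls became 7 with rescaling over protein-coding genes, where 14906 of all 21938 genes passed. For the change of the ROSI minus ICSI difference between stages, 1 member passed with median-ratio scaling and 2 with array weights. Of the network genes, 2 passed with median-ratio scaling, 1 with rescaling over protein-coding genes, 2 with quantile normalization and 2 with array weights. Over all genes these settings passed 244, 97, 197 and 220 genes, in that order. The 13 network calls between ROSI and ICSI 2-cell embryos became 8 with no filter and 4 to 10 with a library left out: 4 without ROSI 2-cell replicate 2, 8 without ICSI 2-cell replicate 1 and 5 without ICSI 2-cell replicate 2. Over all genes the 2087 calls became 1366 with no filter, and 947, 1102 and 1081 without these libraries, in that order. In zygotes 1 network gene passed with array weights, where 311 of all genes did. The causes were not tested.

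Differences that changed sign follow on the log2 scale, with the setting in brackets (PC, rescaled over protein-coding genes, and LOO, the range with 1 library left out). None of these differences had passed in the fit reported above. Under another setting, Tfap2c between stages after ICSI did pass at 0.40 (PC, limma adjusted p = 0.0129). For ROSI minus ICSI, 2-cell embryos, Sox2 had -0.091 to 0.48 (LOO). Sall4 had -0.15 to 0.057 (LOO). Tdgf1 had -0.010 to 0.26 (LOO). For ROSI minus ICSI, zygotes, Nanog had 0.11 (pseudocount 0.1), 0.049 (quantile), 0.047 (array weights) and -0.16 to 0.097 (LOO). Dppa5a had -0.44 to 0.092 (LOO). Esrrb had 0.017 (median-ratio), 0.024 (PC) and 0.018 (quantile). Sall4 had -0.26 to 0.0020 (LOO). Tdgf1 had -0.17 to 0.037 (LOO). Utf1 had 0.013 (quantile), 0.034 (array weights), 0.17 (replicate block) and -0.10 to 0.067 (LOO). Klf17 had -0.037 to 0.16 (LOO). Klf5 had -0.78 to 0.30 (LOO). Sox15 had -0.34 to 0.032 (LOO). For 2-cell embryos minus zygotes, ICSI, Tfap2c had 0.0032 (median-ratio), 0.40 (PC), 0.26 (quantile) and -0.19 to 0.0050 (LOO). Sall4 had 0.21 (PC) and 0.23 (quantile). For 2-cell embryos minus zygotes, ROSI, Tfap2c had -0.013 (median-ratio) and -0.057 to 0.086 (LOO). Sall4 had 0.23 (PC) and 0.24 (quantile). For the change of the ROSI minus ICSI difference between stages, Tfap2c had -0.017 (median-ratio). Sall4 had -0.086 (median-ratio) and -0.063 to 0.20 (LOO). Klf5 had -0.062 (pseudocount 5), -0.098 (median-ratio), -0.12 (array weights) and -0.50 to 0.58 (LOO). Smad2 had -0.15 to 0.10 (LOO).

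The labels do not say what a shared replicate number means. In zygotes, deviations from the group means gave r of 0.33 and 0.215 between same-numbered ROSI and ICSI libraries. ROSI zygote replicate 2 and ICSI zygote replicate 3, with different numbers, had an r of 0.206. With 2 ROSI zygote libraries the deviations mirror each other, so these r are not independent. The replicate 1 zygote libraries are also those under 1% small RNA, and that share's part was not tested. At the 2-cell stage same-numbered libraries had r of 0.0242, -0.00258 and -0.0146. No source says that a number marks a shared origin, so the numbers were not used as pairs. With the replicate block, 2 members passed between ROSI and ICSI 2-cell embryos, and the calls of Tdgf1 (adjusted p = 0.0717) and Utf1 (adjusted p = 0.0605) between stages after ROSI ended. Depth limits Nanog, Tdgf1 and Utf1, with at most 40 reads in a library.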
